A study of Mus musculus with 6 samples.

Results

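Genes of DNA replication, the cell cycle and mismatch repair were followed during SGN degeneration, in RNA of the bony axis of the cochlea (the modiolus), where the spiral ganglion neurons (SGNs) lie. The members were protein-coding genes taken by symbol: the numbered Mcm, Rfc, Orc, Gins, Ccna, Ccnb, Ccne, Cdk and Msh genes, with Dtl, Pcna, Top2a, Mki67, Tk1, Rrm1 and Rrm2. The annotation held 71 such genes among 21951 protein-coding genes. The series had 6 libraries from C57BL/6 mice, 3 of a control group treated with saline and 3 of a degenerated group. For the model the paper used only male mice of 8 weeks, with the controls given saline at the same time. It lists the key modules of this degeneration as those of wild-type mice. The degenerated group received 1 g/kg kanamycin and 0.4 g/kg furosemide, which ablate the hair cells, and was sampled on day 30. The paper gives no separate day for the controls. Nothing in the labels says whether a library came from a single mouse or from pooled mice, so p-values measure only the spread between these libraries.

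Replication starts at origins bound by the origin recognition complex (Orc genes), onto which the ring-shaped helicase of Mcm2 to Mcm7 is loaded. The GINS complex (Gins genes) helps to switch that helicase on, the clamp loader (Rfc genes) places the sliding clamp Pcna on the DNA, and ribonucleotide reductase (Rrm1 with Rrm2) supplies deoxynucleotides. Cyclins of the A, B and E classes with Cdk1 and Cdk2 drive S phase and mitosis, Cdk4 and Cdk6 act earlier with D cyclins, and MutS proteins such as Msh3 and Msh6 recognise mismatched bases and small loops. Mature neurons do not divide, while Cdk5, in spite of its name, is a kinase of neurons that works without cyclins.

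Only a part of each gene was counted. The deposited table lists 65535 transcripts, and of the 444 annotated transcripts of the members it lists 215 (48.4%), among them 90 of 187 coding ones (48.1%). The number of listed transcripts is the row limit of an older spreadsheet format, so the table may be cut short, and an unlisted transcript is not one without reads. The counts per transcript may also be rounded estimates, since how reads were divided between transcripts is not stated. No transcript was listed for 6 members (Ccnb2, Cdk5r1, Cdk5r2, Cdk7, Gins4 and Mcm5), which were not analysed here. Of the 65 others, 15 had too few counts to be tested and 50 were tested. All annotated transcripts were listed for Rfc1 and Ccnb3 alone, and 9 tested members, among them Dtl, Pcna, Mcm3 and Cdk2, were counted through non-coding transcripts only. The libraries held 14418480 to 15549319 counts in controls and 12480876 to 14841769 in degenerated samples. The labels name the cell type as spiral ganglion neuron, and all 10 neuron markers (such as Tubb3, Nefl and Snap25) were detected, but so were myelin genes of Schwann cells, hair cell genes, bone genes and globins. In such bulk RNA, fewer cells of a type and less RNA per cell cannot be told apart.

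Dtl and Msh3 were higher in degenerated samples, and they were the only members called. Most of the other members had an estimate within 1.5-fold of no difference, though for some, such as Mki67, the standard error was larger than the estimate. Rrm2, Ccnb1, Gins1, Gins2 and Mcm6 were among those outside that range. The criteria were a p under 0.01, taken here as unadjusted, and an absolute log2 fold change above 0.2, which the paper states for its knockout mice and not for these groups. At these criteria 2 of 50 members (4.0%) were called higher, against 2.01% of the 14118 genes tested, and none lower, against 0.715%. With edgeR no member passed an adjusted p under 0.05, and neither did any other gene (0.0%), while 6 members (12%) against 9.68% of all genes had an unadjusted p under 0.05. With DESeq2 2 members passed an adjusted p under 0.05. In sign, 21 members were higher and 29 lower, the median log2 fold change was -0.08 against -0.003 over all genes, and 37 members lay within 1.5-fold of no difference. In 8 members (16.0%) the groups did not overlap, against 17.7% of all genes. The 3 above the controls (10.3% of all genes) were Dtl, Msh3 and Cdk17, and the 5 below them (7.37% of all genes) were Cdk5, Orc5, Msh5, Cdk8 and Cdk10, where Cdk17, Cdk8 and Cdk10 are named after their values were seen. With 3 libraries against 3, an exact permutation test of a single gene cannot go below 0.1.

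**Figure D1:**
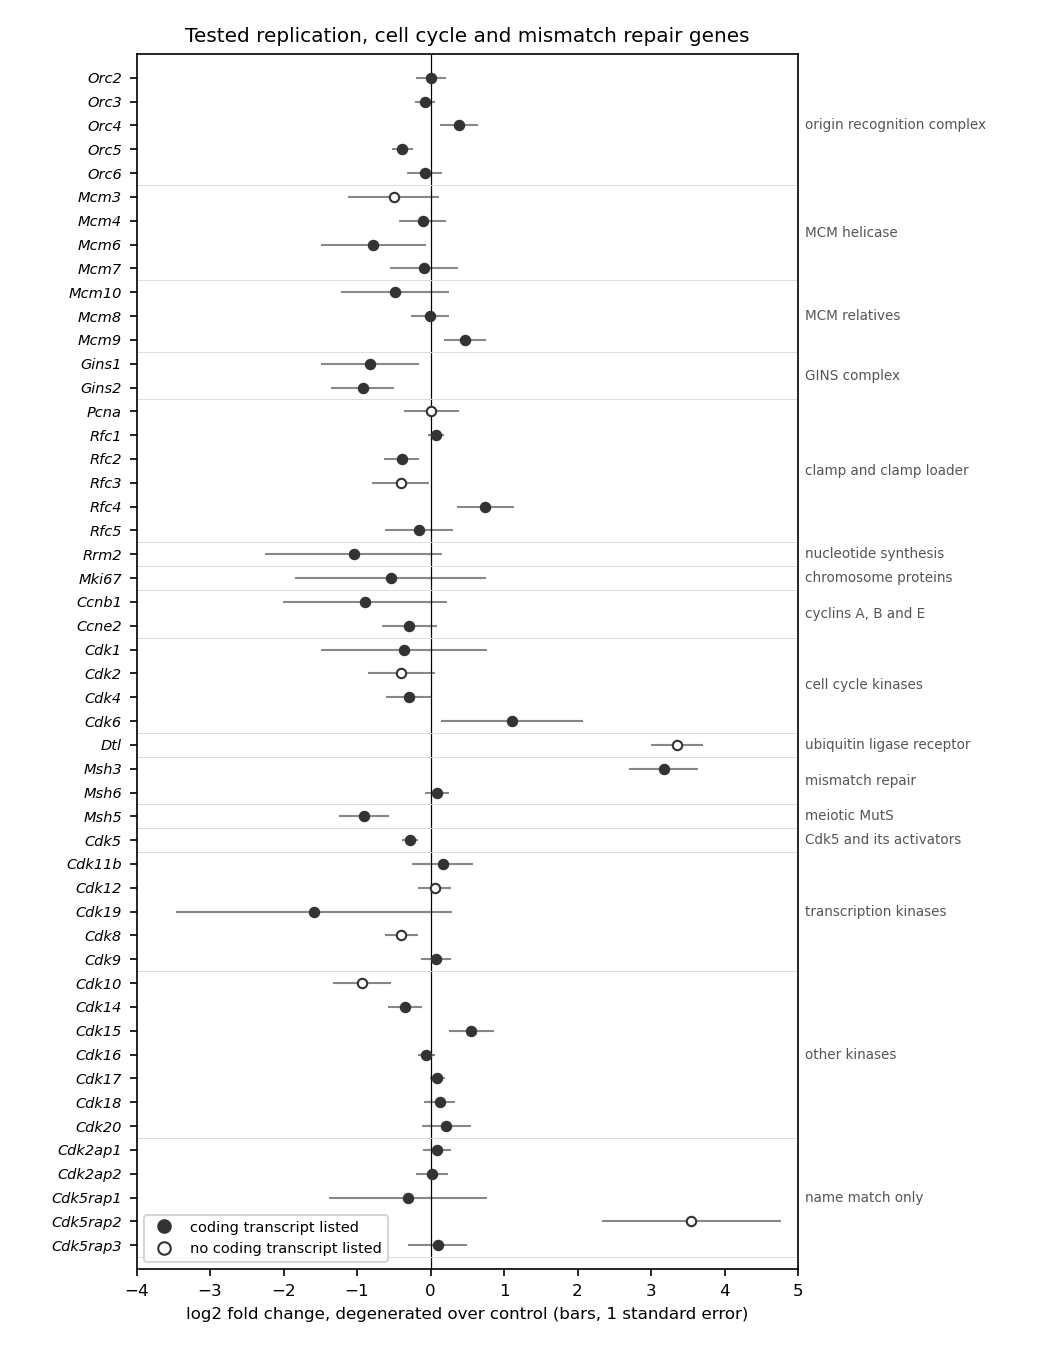
Log2 fold change of the 50 tested members (degenerated over control, 3 libraries each), grouped by role, with bars of 1 standard error; open circles are members counted through non-coding transcripts only. Dtl, Msh3 and Cdk5rap2 lie above 3, the bar of Cdk5rap2 is several times as long as that of Dtl, and most other members lie near 0.

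Dtl encodes Cdt2, the receptor through which the CRL4 ubiquitin ligase marks the licensing factor Cdt1 and other proteins for destruction at Pcna on replicating DNA. It lies at chr1:191537356-191575544 on the minus strand (GRCm38). Dtl had 10, 11 and 12 counts in controls and 99, 86 and 126 in degenerated samples. The groups were far apart, with the lowest degenerated library well above the highest control. As CPM, the counts scaled to the size and composition of each library, this was 0.735 ± 0.0638 (SD, n = 3) against 7.59 ± 2.07 (SD, n = 3). Dtl was upregulated by 3.35 on the log2 scale (SE 0.36, adjusted p = 0.0802, edgeR). By DESeq2 its adjusted p was 3.02e-10, and over all alternatives it lay between 3.02e-10 and 0.602.

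The listed counts of Dtl were not assigned to its coding transcript Dtl-201, which is not in the list. In degenerated samples they were assigned almost wholly to Dtl-205, a transcript of 4230 bases in 16 exons that the annotation marks for nonsense-mediated decay. Dtl-205 had 10, 1 and 2 counts in controls and 89, 85 and 122 in degenerated samples, while Dtl-202 and Dtl-204 had at most 9 in any library. Its log2 fold change was 4.57 (SE 0.90, adjusted p = 0.406). With edgeR it was the only member transcript called, 1 higher and 0 lower of 103 tested, where 1.14% of all transcripts were called higher, 0.652% lower and 0.0153% at an adjusted p under 0.05. Without control replicate 3 its log2 fold change was 4.21 and it was no longer called.

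Dtl-205 shares nearly all of its sequence with other Dtl transcripts. Only 41 of its bases lie in no other annotated transcript of the gene, and 32 of these form an exon at chr1:191565319-191565350 that Dtl-201 lacks and that holds an annotated stop codon. That exon is shown because it separates the counted transcript from the coding one. It is written 5′ to 3′ on the strand of the gene, and the capitals mark the stop codon.
Dtl-205 exon: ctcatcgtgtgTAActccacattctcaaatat
Dtl-201 has 23 bases in no other annotated transcript of the gene. Reads within the bases that both share could belong to either transcript, and how the authors' software divided them was not tested.

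Msh3 encodes a MutS protein that recognises insertion and deletion loops. It lies at chr13:92211872-92355003 on the minus strand (GRCm38), and the library kit does not mark strand. Msh3 had 15, 10 and 17 counts in controls and 105, 75 and 163 in degenerated samples, again with no overlap. Mean levels were 0.928 ± 0.197 CPM (SD, n = 3) and 8.44 ± 3.95 CPM (SD, n = 3). Msh3 was upregulated by 3.17 on the log2 scale (SE 0.47, adjusted p = 0.178, edgeR), with an adjusted p between 2.12e-06 (DESeq2) and 0.602 over the alternatives.

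As in Dtl, the coding transcripts of full length are not in the list. In degenerated samples nearly all counts came from Msh3-213, a transcript of 1796 bases with a retained intron, which had 1, 1 and 15 counts in controls and 99, 71 and 150 in degenerated samples. At the level of transcripts its log2 fold change of 4.35 (SE 1.16, adjusted p = 0.557) was just short of the criteria, and without control replicate 3 it was 6.63 and called. The 2 listed coding transcripts of Msh3, both short, had at most 7 counts in any library. Msh3-213 begins with 81 bases that lie in no exon of another annotated Msh3 transcript. They are shown in capitals, with the 20 shared bases that follow in lower case, from chr13:92265972-92266072 on the minus strand.
Msh3-213 start: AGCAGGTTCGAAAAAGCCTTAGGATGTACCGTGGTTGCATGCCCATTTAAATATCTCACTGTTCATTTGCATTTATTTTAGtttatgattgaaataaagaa

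**Figure D2:**
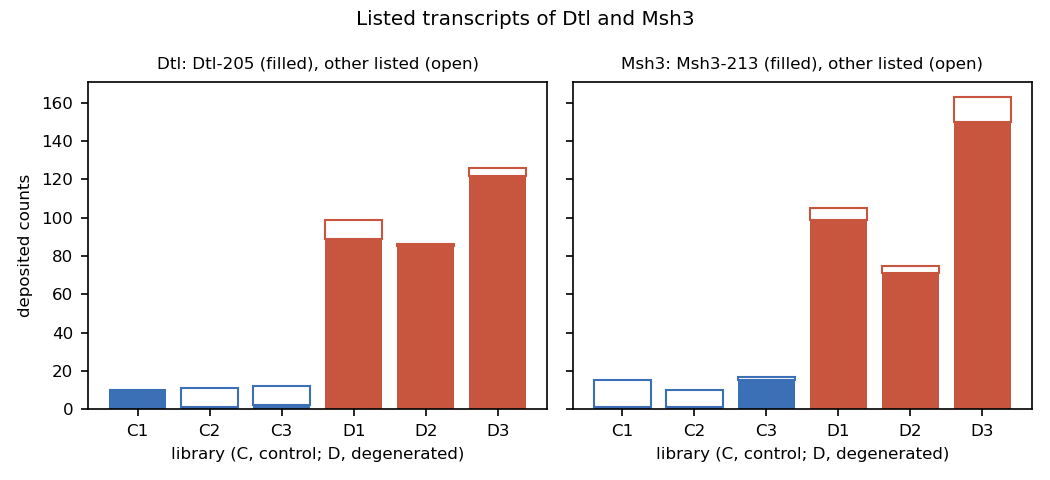
Deposited counts of Dtl (left) and Msh3 (right) in each of 3 control (C, blue) and 3 degenerated (D, red) libraries; filled bars are Dtl-205 and Msh3-213, open bars the other listed transcripts. Degenerated libraries reach 86 to 126 counts for Dtl and 75 to 163 for Msh3, controls at most 12 and 17.

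Msh6, a MutS protein that recognises single mismatches, was not called. It had 1061, 1219 and 1287 counts in controls and 1040, 1248 and 1203 in degenerated samples, from its coding transcript Msh6-201. The groups overlapped, and the log2 fold change was 0.09 (SE 0.16, adjusted p = 0.884). Of the meiotic MutS genes, Msh4 had at most 5 counts in any library. Msh5 had 81, 130 and 88 counts in controls and 47, 56 and 46 in degenerated samples. Every degenerated library was below every control, with a log2 fold change of -0.90 (SE 0.34, adjusted p = 0.480), which missed the criteria. The partners and substrates of the Dtl ligase (Ddb1, Cul4a, Cul4b, Rbx1 and Kmt5a) gave 0 calls among 5 tested, 3 higher in sign and 2 lower, with a median log2 fold change of 0.17.

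The origin recognition complex had a listed coding transcript in all 5 tested subunits (Orc2 to Orc6), whose log2 fold changes lay between -0.38 and 0.38. Orc5 was the lowest. It had 871, 944 and 1123 counts in controls and 741, 699 and 639 in degenerated samples. In CPM the degenerated libraries lay closely together at 50.1 ± 0.777 (SD, n = 3), below all controls at 65.4 ± 7.11 (SD, n = 3). The log2 fold change was -0.38 (SE 0.14, adjusted p = 0.470), past the criteria with DESeq2 (adjusted p = 0.164, over all alternatives 0.164 to 0.760) and not with edgeR. Orc1 was counted through non-coding transcripts and had at most 10 counts in any library.

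The sum over Orc5 hid a large split between libraries. The coding transcript Orc5-201 had 79, 750 and 130 counts in controls and 618, 487 and 61 in degenerated samples. The retained-intron transcript Orc5-202 had 749, 168 and 933 in controls and 93, 189 and 542 in degenerated samples. Where Orc5-201 was high Orc5-202 was low, so that the coding form made up 9.54%, 81.7% and 12.2% of the pair in controls and 86.9%, 72.0% and 10.1% in degenerated samples. The split did not follow the groups.

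**Figure D3:**
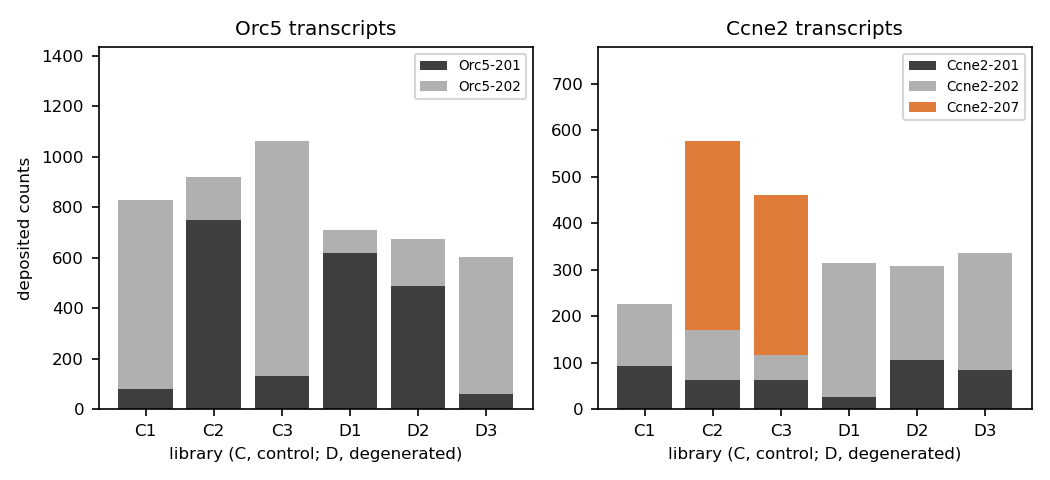
Deposited counts of the listed transcripts of Orc5 (left) and Ccne2 (right) that held most counts, stacked, in 3 control (C) and 3 degenerated (D) libraries. Orc5-201 and Orc5-202 trade places between libraries of the same group while their sum changes little, and Ccne2-207 has counts in C2 and C3 only.

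The clamp loader holds the best measured member, Rfc1, its large subunit, for which all 7 annotated transcripts were listed. Rfc1 had 1698, 1634 and 1655 counts in controls and 1584, 1674 and 1567 in degenerated samples. The values were steady in both groups, at 111 ± 5.11 CPM and 117 ± 7.74 CPM (SD, n = 3 each), and the log2 fold change was 0.07 (SE 0.11, adjusted p = 0.870). The other loader subunits, Rfc2 to Rfc5, had log2 fold changes between -0.41 and 0.75 with overlapping groups. Pcna was counted through 2 non-coding transcripts and had 57, 53 and 59 counts in controls and 33, 67 and 56 in degenerated samples, which says nothing of its coding RNA.

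All 4 tested subunits of the replicative helicase had negative log2 fold changes, and none was called. Mcm4 had 734, 1289 and 1091 counts in controls and 822, 695 and 1131 in degenerated samples. Its levels of 69.8 ± 21.3 CPM and 64.8 ± 21.5 CPM (SD, n = 3 each) differed by less than the spread in either group. Mcm6 had 91, 643 and 668 counts in controls and 234, 215 and 301 in degenerated samples, where control replicate 1 lay below every degenerated library and the other controls above. Its log2 fold change was -0.78 (SE 0.71, adjusted p = 0.775). Without control replicate 1 Mcm6 was called lower, at -1.28 (adjusted p = 0.253, over all alternatives 0.253 to 0.942). Mcm7 had 39 to 47 counts in controls and 23 to 65 in degenerated samples, and Mcm3, counted without its coding transcript, had 5 to 24 counts over all libraries. Mcm2 was too low to test, with at most 6 counts, all from non-coding transcripts. The GINS genes Gins1 and Gins2 were also lower in sign, at -0.82 and -0.92, with overlapping groups.

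Mki67, Rrm2, Ccnb1 and Cdk1 varied widely between replicates of the same group, and none was called. Mki67, the chromosome-coating protein used as a mark of dividing cells, had 195, 7622 and 3829 counts in controls and 1232, 739 and 5201 in degenerated samples. Controls thus spanned 12.9 to 539 CPM, a 41.8-fold range, and degenerated samples 52.0 to 410 CPM. With 0.5 CPM added to every value, which shrinks the ratios of low genes, Mki67 stood at percentile 99.2 of all genes tested for its spread between controls. On that scale controls differed by over 5-fold in 7 of 50 members (14.0%), against 8.91% of all genes. Its log2 fold change was -0.54 (SE 1.3, adjusted p = 0.915). The direction of that value turned without control replicate 2 (0.50), with limma-voom (0.01) and with the replicate number as a block (0.25).

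Rrm2, the S phase subunit of ribonucleotide reductase, had 70, 1885 and 1159 counts in controls and 292, 143 and 923 in degenerated samples. Its log2 fold change was -1.04 (SE 1.20, adjusted p = 0.818). Ccnb1, the mitotic cyclin B1, had 29, 691 and 345 counts in controls and 139, 67 and 316 in degenerated samples, for a log2 fold change of -0.90 (SE 1.12, adjusted p = 0.833) that turned to 0.12 without control replicate 2. Cdk1, the kinase that cyclin B1 activates, had 1, 32 and 49 counts in controls and 8, 17 and 32 in degenerated samples. In all 4 genes control replicate 1 was the lowest of the 6 libraries, and degenerated replicate 3 the highest of its group. Cyclin E2 (Ccne2), which acts at the start of S phase, had 225, 577 and 460 counts in controls and 315, 308 and 335 in degenerated samples. Its transcript Ccne2-207 had 0, 407 and 344 counts in controls and 0 in every degenerated library, while Ccne2-202 had 133, 108 and 54 in controls and 289, 202 and 251 in degenerated samples. Ccne1 and Ccna2 were too low to test, with at most 5 counts in any library. Top2a, Tk1 and Rrm1 were counted through non-coding transcripts, with at most 25 counts in any library, so that their coding RNA was not measured.

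Several other members were also low in control replicate 1. Among 11 tested members with a listed coding transcript (Ccnb1, Ccne2, Cdk1, Gins1, Gins2, Mcm10, Mcm4, Mcm6, Mcm7, Mki67 and Rrm2, a set formed after values were seen, which leaves out members of related roles such as Rfc1, Orc2 to Orc6, Mcm8 and Cdk4 and supports nothing about the roles as a whole), control replicate 1 was the lowest of the 6 libraries in 9 and control replicate 2 the highest in 9. Degenerated replicate 3 was the highest of its group in 10. The summed markers of marrow cells were also highest in control replicates 2 and 3 and degenerated replicate 3, but lowest in degenerated replicate 2. The pattern was not particular to marrow cells. The summed macrophage and T and NK cell markers were highest in the same libraries and lowest in control replicate 1, at 861 and 13.6 CPM. Those of Schwann cells and satellite glia were lowest in control replicates 2 and 3 and degenerated replicate 3. The summed level of 21 listed markers of erythroid precursors, neutrophil precursors and the B lineage was 7144, 49933 and 25286 CPM in controls and 7987, 5116 and 19950 CPM in degenerated samples. Most of that sum was erythroid, at 6935.5 CPM in control replicate 1 and 3927.7 CPM in degenerated replicate 2. In control replicate 1 the neutrophil and B lineage sums were the lowest of the 6 libraries, at 190.9 and 17.2 CPM. In degenerated replicate 2 they were 1130.7 and 57.7 CPM. Klf1, the erythroid transcription factor, went from 2 counts in control replicate 1 to 1037 in control replicate 2, and the neutrophil granule gene Mpo from 22 to 7085. None of the listed marrow markers was at 0 in all libraries. In sign, 8 of 8 erythroid, 7 of 7 neutrophil and 5 of 6 B lineage markers were lower in degenerated samples, and of these Tfrc alone was called. For every 1000 CPM of marrow markers there were 1.81, 10.8 and 9.66 CPM of Mki67 in controls and 10.6, 10.2 and 20.6 in degenerated samples. Per CPM of this mostly erythroid sum, control replicate 1 was thus the only library under 9 and degenerated replicate 3 the highest. Ratios to the neutrophil or B lineage markers alone were not taken. The erythroid list includes globin genes, and RNA of circulating red cells was not told apart from that of marrow.

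With the marrow marker level as a covariate, an alternative chosen after seeing the data, Mki67 was called higher in degenerated samples, by 2.08 on the log2 scale (adjusted p = 0.339, over all alternatives 0.339 to 0.999). In that fit Rrm2 was at 1.31, Ccnb1 at 1.44, Mcm4 at 0.31 and Mcm6 at 0.56, none of them called. All 5 had been negative without the covariate. Their direction between the groups therefore depends on whether this summed, mostly erythroid marker level is in the fit. Fits with the neutrophil or B lineage level alone were not made. Because the sum does not separate marrow from blood, this fit is not a correction for marrow cells. The part of marrow cells in these levels was not tested.

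**Figure D4:**
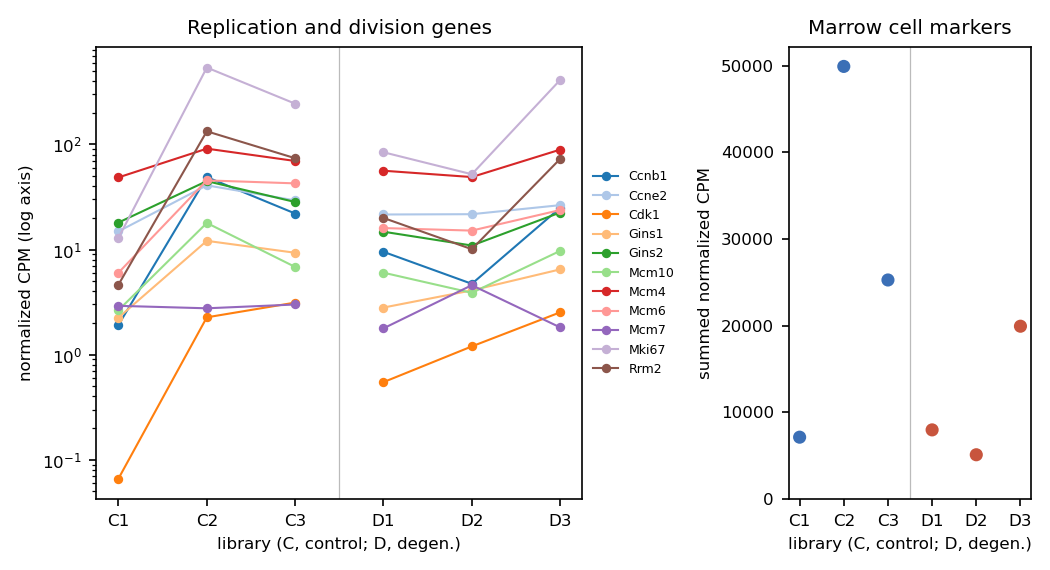
Left, normalized CPM (log axis) of 11 replication and division genes in 3 control (C) and 3 degenerated (D) libraries, with lines joining a gene's values within a group; right, summed CPM of 21 marrow cell markers in the same libraries. C1 is low and C2, C3 and D3 are high for most genes, as for the marrow markers, which span 5116 to 49933 CPM.

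Other genes of these pathways were mostly lower in sign, with few calls. Over all genes tested 2.01% were called higher and 0.715% lower. Of 26 tested mitosis genes (such as Plk1, Aurkb and Birc5), 3 were higher and 23 lower in sign, 0 were called and the median log2 fold change was -0.64. The 31 listed mitosis genes summed to 198, 1170 and 602 CPM in controls and 275, 244 and 697 CPM in degenerated samples. That sum was high in the same 3 libraries as the marrow, macrophage and T and NK cell markers, whose part in it was not tested. Of 25 tested genes of the replication fork, 6 were higher and 19 lower in sign with a median of -0.23, and 1 was called lower. That gene was Lig1, the ligase that joins Okazaki fragments, with 100, 463 and 531 counts in controls and 7, 26 and 20 in degenerated samples (log2 fold change -4.23, SE 0.84, adjusted p = 0.279). Its control counts were spread over several processed transcripts, which are non-coding, with Lig1-209 at 18, 430 and 189. The listed coding transcripts Lig1-202 and Lig1-210 had at most 9 and 22 counts in any library. Of 6 regulators of origin licensing and firing, 2 were higher and 4 lower in sign with a median of -0.56, and of 18 genes among D cyclins, CDK inhibitors, Rb and E2F 6 were higher and 12 lower with a median of -0.16, all without a call. All 3 tested genes of nucleotide supply were lower in sign, with a median of -0.19 and no call. Of 11 genes of the p53 and DNA damage checkpoint, 7 were higher and 4 lower in sign with a median of 0.11. Atm, the kinase that senses double-strand breaks, was called higher, with 570, 489 and 550 counts in controls and 758, 957 and 625 in degenerated samples (log2 fold change 0.65, SE 0.18, adjusted p = 0.362), nearly all from the coding transcript Atm-201.

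Cdk4 and Cdk6, the kinases of G1, were not called. Cdk4 had 995, 1901 and 1281 counts in controls and 1049, 885 and 1218 in degenerated samples, with a log2 fold change of -0.29 (SE 0.31, adjusted p = 0.803) that turned to 0.05 without control replicate 2. Cdk6 had 2, 28 and 4 counts in controls and 20, 23 and 27 in degenerated samples, so that control replicate 2 alone overlapped the degenerated libraries. Without that library Cdk6 was called higher (log2 fold change 3.08). Cdk2, without a listed coding transcript, had 178, 236 and 208 counts in controls and 117, 86 and 224 in degenerated samples.

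Cdk5, the neuronal kinase, was lower in every degenerated library than in any control, by a small amount. It had 1784, 1684 and 1636 counts in controls and 1391, 1383 and 1128 in degenerated samples, or 114 ± 8.23 CPM against 93.9 ± 4.34 CPM (SD, n = 3 each). The log2 fold change of -0.28 (SE 0.11, adjusted p = 0.514) missed the criteria. Both of its coding transcripts were listed, and nearly all counts came from Cdk5-201. Its activators Cdk5r1 and Cdk5r2 had no listed transcript. Of 9 neuron markers tested, 8 were lower in sign with a median log2 fold change of -0.61. The summed level of all 10 listed markers was 11072 to 14349 CPM in controls and 6401 to 9670 CPM in degenerated samples. Whether the level of Cdk5 followed that of neuronal RNA was not tested.

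Cdk5rap2, a centrosome protein that the symbol rule takes in by its name, had the largest log2 fold change of the members, 3.55 (SE 1.22, adjusted p = 0.444). Its counts were 5, 20 and 5 in controls and 208, 134 and 8 in degenerated samples. Degenerated replicate 3 thus lay within the controls, and without it Cdk5rap2 was called (4.09, adjusted p = 0.473), as it was with DESeq2 (adjusted p = 0.0569; over all alternatives 0.0569 to 0.734). No coding transcript of it was listed, and nearly all counts came from Cdk5rap2-201, which is marked for nonsense-mediated decay and had 0, 12 and 0 counts in controls and 206, 117 and 0 in degenerated samples. It shared this with Dtl: in both, the difference rested on a single transcript marked for decay.

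Per length of the listed transcripts, the highest levels were those of kinases and their binding proteins. Cdk16 stood first at a mean of 239 TPM (counts per length, scaled to a common library total) over all libraries, followed by Cdk4 at 192, Cdk2ap1 at 166, Cdk2ap2 at 109 and Cdk5 at 99.7, while Mki67 stood at 40.8 and Dtl at 2.11. The 7 kinases Cdk10, Cdk14 to Cdk18 and Cdk20 had log2 fold changes between -0.93 and 0.55. The 5 tested kinases of transcription had values between -1.58 and 0.16, the lowest that of Cdk19, whose counts of 3968, 15 and 1346 in controls and 466, 9 and 1069 in degenerated samples overlapped between the groups and differed from the pattern of the marrow markers.

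The promoters of some members hold the letters that S phase transcription factors of the E2F family are known to bind. In the 250 bases before the annotated start (RefSeq, GRCm38.p6), 59 of the 71 members had a sequence. The motif TTCCCGC, its variant TTCGCGC, the variant TTGCCGC or the variant TTGGCGC was present on either strand in 19 of these 59 genes (32.2%), against 9.01% of 27025 genes. The CHR element TTTGAA, known from genes of mitosis, was present in 9 of the 59 (15.3%) against 18.3%. Stretches are shown for Dtl and Msh3, which were higher in degenerated samples, and for Mcm6 and Mki67, which were lowest in control replicate 1. All 4 lie on the minus strand of their chromosome and are written 5′ to 3′ on the strand of the gene, at chr1:191575545-191575665, chr13:92355183-92355216, chr1:128359730-128359826 and chr7:135716428-135716507. Capitals mark the E2F letters and, in Mki67, also TTTGAA; in the runs TTGGCGCGAA a match on one strand overlaps a match on the other.
Dtl promoter: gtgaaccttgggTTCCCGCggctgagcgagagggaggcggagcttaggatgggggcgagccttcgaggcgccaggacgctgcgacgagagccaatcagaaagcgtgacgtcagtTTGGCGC
Msh3 promoter: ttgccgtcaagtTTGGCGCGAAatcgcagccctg
Mcm6 promoter: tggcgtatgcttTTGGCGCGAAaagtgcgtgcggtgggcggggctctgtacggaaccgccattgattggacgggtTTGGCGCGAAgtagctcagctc
Mki67 promoter: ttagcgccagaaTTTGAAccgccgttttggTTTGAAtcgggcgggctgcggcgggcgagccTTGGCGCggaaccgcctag
A match is a description of these letters, and no binding was measured in these libraries. The Msh3 stretch lies before the annotated start of the gene. Msh3-213, which held nearly all Msh3 counts in degenerated samples, begins further inside the gene, at chr13:92266072, so the stretch is not next to its start.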

How the data were processed

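RNA of the cochlear modiolus was sequenced in 3 control and 3 degenerated libraries, grouped by the labels. The paper names Hisat2 2.1.0 and StringTie 1.3.3b, while the submitters' processing notes name Bowtie 0.12.2 and the builds mm8 and mm10 without a role. Not given in the sources used here are the counting of reads, its annotation and the test of differential expression. The authors deposited raw counts per Ensembl transcript, not normalized, as whole numbers. RNA was extracted with Trizol per the labels, and the paper names another reagent.

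Transcripts were joined to GENCODE M21 (GRCm38). Of 65535, 263 did not match and were left out with 0.125% of the counts. Counts of the listed transcripts were added up per gene, so a shift between listed and unlisted transcripts changes a gene's counted part. Genes with low counts were removed (filterByExpr), TMM factors ranged from 0.983 to 1.02, and the robust quasi-likelihood F test of edgeR 4.0.16 (R 4.3.3) was fitted on all genes without covariates, with Benjamini-Hochberg adjustment over all genes tested. A call required an unadjusted p under 0.01 and an absolute log2 fold change above 0.2, the thresholds that the paper gives for its knockout comparison. The standard error was the log2 fold change over the square root of F. The same fit was made on transcripts. A count of 0 allows up to 3 counts, or 0.193 to 0.240 CPM. TPM were computed here over listed transcripts. Steps were tested on simulated data.

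Alternatives were DESeq2 1.42.0, limma-voom (limma 3.58.1), RLE and upper-quartile normalization, no filter or a mean count of 10, the replicate number as a block, each library left out in turn and only genes with every transcript listed. The marrow marker level as a covariate and genes with a listed coding transcript were added after seeing the data. Members and lists were chosen with earlier results of these data known. Values are given for members called or at an unadjusted p under 0.05, members with every transcript listed and at least 1 CPM, and a list of core genes of replication, the cell cycle and mismatch repair. Other members are given by ranges, and those singled out beyond this rule (Cdk8, Cdk10, Cdk17, Cdk19, Cdk5rap2's transcripts and the transcript splits) were chosen after their values were seen. Knockout mice of the study were not analysed here. Results for some members and list genes are not reported here.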

Additional observations from a re-analysis of the deposited data

How the results depend on the processing

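Dtl and Msh3 were called higher under every alternative that could test them, with log2 fold changes of 3.11 to 3.56 and 2.73 to 3.41. With DESeq2 1 member was called lower (Orc5), 2 members passed an adjusted p under 0.05, and of the transcripts 3 were called higher, 2 lower and 2 at an adjusted p. Over all genes DESeq2 called 479 higher, 306 lower and 383 at an adjusted p, against 284, 101 and 0 with edgeR. Among genes with every transcript listed, only Rfc1 remained to be tested and 0 members were called higher, and among genes with a listed coding transcript 1 was (Msh3), since Dtl was no longer tested. Msh3 stayed in that set through short coding transcripts with at most 7 counts in any library. Nearly all its counts in degenerated samples were still those of the non-coding Msh3-213. With the marrow marker level as a covariate the median of the members was 0.15. Leaving out each library in turn gave 0 to 1 members called lower, 0 to 2 transcripts lower and 1 to 2 transcripts higher. The median log2 fold change of all genes stayed between -0.03 and 0.03.

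Directions turned in 7 named members, none of them called in the edgeR fit without covariates on all libraries. Mki67 was at 0.0103 with limma-voom, 0.25 with the replicate block and 2.08 with the marrow covariate, where it was called higher. With that covariate Rrm2 was at 1.31, Ccnb1 at 1.44, Mcm4 at 0.31, Mcm6 at 0.56 and Cdk4 at 0.13. Leaving out a library moved Mki67 between -1.96 and 0.50, Ccnb1 between -1.77 and 0.12, Mcm4 between -0.41 and 0.13, Cdk4 between -0.51 and 0.0539 and Msh6 between -0.0019 and 0.19. Apart from the construction of the fits with fewer genes, the causes were not tested.

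Replicate numbers did not pair the libraries: libraries with the same number had deviations from their group means that correlated at 0.137, -0.083 and 0.064. With the replicate block 160 genes were called higher and 58 lower, members called higher stayed at 2 and 2 member transcripts were called higher. Depth limits members under about 10 counts, and the depth of the full libraries is unknown.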

Other observations

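Beside Orc5, some other members divided their counts between transcripts unevenly over the libraries. Mcm9, a helicase relative with roles in repair and meiosis, had 217, 337 and 252 counts of Mcm9-201 in controls and 307, 113 and 250 in degenerated samples, against 57, 14 and 202 and then 259, 417 and 48 of Mcm9-204. Cdk20-203, a transcript marked for nonsense-mediated decay, had 95, 90 and 0 counts in controls and 47, 0 and 13 in degenerated samples. Cdk14-207 had 2, 117 and 1 counts in controls and 18, 47 and 53 in degenerated samples. Cdk5-203, a coding transcript, had 0, 0 and 46 counts in controls and 63, 85 and 41 in degenerated samples. In CPM its groups did not overlap, and without control replicate 3 it was called higher, at 8.98 on the log2 scale against 2 controls at 0, a value that depends on the prior count and is no bound. These transcripts were chosen after their values were seen, and none was called with edgeR on all libraries.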
